A study of Mus musculus with 12 samples.

Results

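The subject is the difference between subjective dusk and subjective dawn in livers with an intact clock: 3 wild-type (WT) livers taken at circadian time 12 h (CT12) were compared with 3 WT livers taken at circadian time 0 h (CT0). These 6 livers were chosen by genotype and time from 12 in all, the other 6 being livers of Bmal1 knockout (KO) mice at the same times, which enter here through the shared estimate of spread and a closing comparison. The mice were C57BL/6, 8 weeks old, with free access to food. They lived under 12 h of light and 12 h of dark and then in constant darkness for the last 2 days, so CT0 is when the lights would have come on and CT12 when they would have gone off. The WT mice carried floxed Bmal1 alleles by the study's methods, with no CRE recombinase stated for them, and the KO mice came from a cross of that line to a liver-specific CRE line. The sample titles number 3 replicates per group, while the protocol text of the labels speaks of 2 mice per genotype and time. Whether each library came from its own mouse is thus not settled, and p-values measure only the spread between these samples.

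In the mammalian clock, BMAL1 (encoded by Arntl) pairs with CLOCK or its relative NPAS2, binds E-box sequences and turns on the genes of its own repressors, the PER and CRY proteins. The same pair turns on the REV-ERB receptors (Nr1d1, Nr1d2), which repress Arntl through RORE sequences that the ROR receptors activate, and the transcription factors DBP, TEF and HLF, which act through D-box sequences against the repressor NFIL3. In liver these factors, together with feeding, hormone and temperature signals, time the synthesis of cholesterol and bile acids, the handling of glucose and fat, and the breakdown of foreign compounds.

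Expression was read as RPKM, the read number scaled by transcript length and by depth, with 1 transcript row kept per gene. The depth recovered from the values was 16900000 to 19040000 reads at CT0 and 13410000 to 16130000 at CT12, and replicates of a group correlated at r of 0.9836 to 0.9894 over the tested genes. The tissue matched its label: the hepatocyte markers, albumin and 9 others, summed to between 44240 and 59260 RPKM in every WT liver. On the first principal component, which held 36.1% of the variance of the 12 samples, the WT CT12 livers lay at 27.5 to 31.2. The WT CT0 livers lay at -5.73 to -3.56. The KO livers lay at -6.52 to -2.08 at CT12 and -21.2 to -18.7 at CT0, so this component held genotype as well as time. Summed markers of 4 other cell types were lower at CT12, as described with the cytoskeletal genes.

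Of 10542 genes averaging 1 RPKM or more at CT0 or CT12 in WT, 1257 differed between the times, or 11.9% of those tested (limma, Benjamini-Hochberg adjusted p under 0.05). Of these, 403 were higher at CT12 (3.82% of tested genes) and 854 were lower (8.1%). The balance depended on the scaling. It was 617 higher and 626 lower after quantile normalization, 663 and 641 with median-of-ratios scaling, and 587 and 572 with trends on GC content and length removed. The median difference of all tested genes was -0.07 on the log2 scale, and fell from -0.01 in the fifth of genes with the lowest GC content to -0.12 in the fifth with the highest. The part of base composition in the balance was not tested. For 3632 genes, 34.5%, the 3 values of each time did not overlap, which held for 1251 of the 1257. A difference of at least 1 on the log2 scale was met by 77 of the genes that rose and 133 of those that fell. The count of 1257 became 1182 when only the 6 WT samples were fitted, and 990 genes were called in both fits. It was 660 without CT0 replicate 2, 675 without CT12 replicate 3, 737 without CT0 replicate 3 and 750 without CT12 replicate 1. Counts of rises and falls in the gene lists below are to be read beside the shares of all tested genes, 3.82% and 8.1%. No set test was run on the lists. Single-gene values below are RPKM in the order of replicates 1, 2 and 3. Differences are CT12 minus CT0 of log2(RPKM + 1), a scale that understates the change of genes with low values.

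Arntl, Clock and Npas2, activators of the clock, were lower at dusk. Of 5 activators tested, 3 fell, against 8.1% of all tested genes, with a median difference of -0.89. Arntl (chr7:120350979-120457636 on NCBIM37, the mm9 build), the gene of BMAL1, stood at 16.4, 15.7 and 15.7 RPKM at CT0 and at 1.26, 0.68 and 1.21 at CT12. Every CT0 liver was far above every CT12 liver, and the level fell by 3.06 (SE 0.13, adjusted p = 1.9e-07). Npas2, at 1.99, 2.68 and 1.94 RPKM at CT0, was nearly absent at CT12, where its rows rested on 2, 1 and 1 reads against 159, 216 and 139 at CT0. Its difference was -1.64 (SE 0.11, adjusted p = 4.2e-06). Clock, the partner of BMAL1, stood at 12.6, 13.5 and 12.6 RPKM at dawn and 7.33, 4.59 and 8.1 at dusk and fell by 0.89 (SE 0.15, adjusted p = 0.0025) with no overlap. Rora, an activator at ROREs, overlapped between the times and did not pass, at -0.19 (SE 0.11, adjusted p = 0.28).

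Most repressors moved the other way. Of 10 tested, 6 rose and 0 fell, with a median of 1.59. Gm129 (chr3:95682426-95686174), also called Ciart or Chrono, a repressor of BMAL1-CLOCK activity, was at 0.142, 0 and 0.159 RPKM at CT0 and 14.5, 15.2 and 21.2 at CT12. These rest on 1, 0 and 1 reads at dawn against 87, 83 and 106 at dusk, so the gene was at the detection limit at dawn, and the difference was 4.01 (SE 0.32, adjusted p = 1.1e-05). Per1 rose by 2.48 (SE 0.31, adjusted p = 0.00036), from 0.64, 0.848 and 0.239 to 6.5, 7.96 and 8.72 RPKM. Per2 stood at 1.5, 0.964 and 1.28 RPKM at dawn and at 8.95, 10.8 and 10.1 at dusk, 7.96-fold higher in the means and higher by 2.29 (SE 0.18, adjusted p = 1.1e-05). Per3 had the widest gap of the 3 Per genes in the means, 20.6-fold, with 0.309, 0.386 and 0.326 against 6.21, 9.22 and 5.57 RPKM and a difference of 2.55 (SE 0.16, adjusted p = 2.9e-06). All 3 Per genes were thus low in each dawn liver and high in each dusk liver. The REV-ERBβ gene Nr1d2 rose by 1.83 (SE 0.22, adjusted p = 0.00026), from 3.59, 3.21 and 6.83 to 17.5, 19.4 and 17 RPKM. Bhlhe40, the gene of an E-box repressor, rose by 1.35 (SE 0.21, adjusted p = 0.0017), from 15.1, 12.6 and 20.8 to 46.1, 39.3 and 40.7.

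The other 4 repressors did not pass. Cry1 held 5.16, 5.32 and 4.06 RPKM at dawn and 4.89, 4.41 and 4.9 at dusk, a difference of -0.02 (SE 0.10, adjusted p = 0.91), and Cry2 had 3.97, 4.43 and 6.11 against 6.8, 7.25 and 5.66, a difference of 0.39 (SE 0.14, adjusted p = 0.094). For Nr1d1, the REV-ERBα gene, the groups overlapped. CT0 replicate 3 stood at 6.57 RPKM where the other dawn livers had 2.04 and 2.05. The dusk livers held 2.35, 2.95 and 1.56 RPKM, and the difference was -0.35 (SE 0.31, adjusted p = 0.51). CT0 replicate 3 also had the highest dawn value of Nr1d2, the lowest of Per1 and the highest of Rgs16 (11 RPKM against 0.136 and 0.607). For Bhlhe41 it was CT12 replicate 3 that differed, with 0.1 RPKM against 3.58 and 3.48 in the other dusk livers, and the difference was 0.62 (SE 0.61, adjusted p = 0.56).

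Among the bZIP outputs of the clock, 3 of 4 rose and 1 fell. Dbp (chr7:52960458-52965525), the albumin D-box binding protein, went from 0.661, 1.25 and 1.18 RPKM to 21.7, 33.4 and 17.3, 23.4-fold in the means and 3.59 (SE 0.27, adjusted p = 6.8e-06) on the log2 scale. Tef was the most even of them, with 8.76, 9.37 and 7.69 RPKM at dawn, 45.1, 45 and 46.9 at dusk and a rise of 2.28 (SE 0.11, adjusted p = 2.1e-07). Hlf rose by 0.75 (SE 0.17, adjusted p = 0.015), from 2.48, 3.82 and 3.15 to 4.61, 7.48 and 6.02 RPKM, and without CT0 replicate 1 its adjusted p was 0.055. Nfil3, which competes with these factors for the D-box, fell by 1.09 (SE 0.15, adjusted p = 0.00068), from 10.5, 13 and 14.2 to 5.88, 4.44 and 5.74 RPKM. D-box activators and their competitor therefore moved in opposite directions between the same livers. Of the 7 clock kinases and F-box proteins tested, 0 passed the limma test, and their median was -0.16. At an unadjusted p under 0.05, 2879 of all 10542 tested genes passed and 1 of these 7. The groups did not overlap for 2 of them, Csnk1d and Btrc, against 34.5% of all tested genes.

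**Figure D1:**
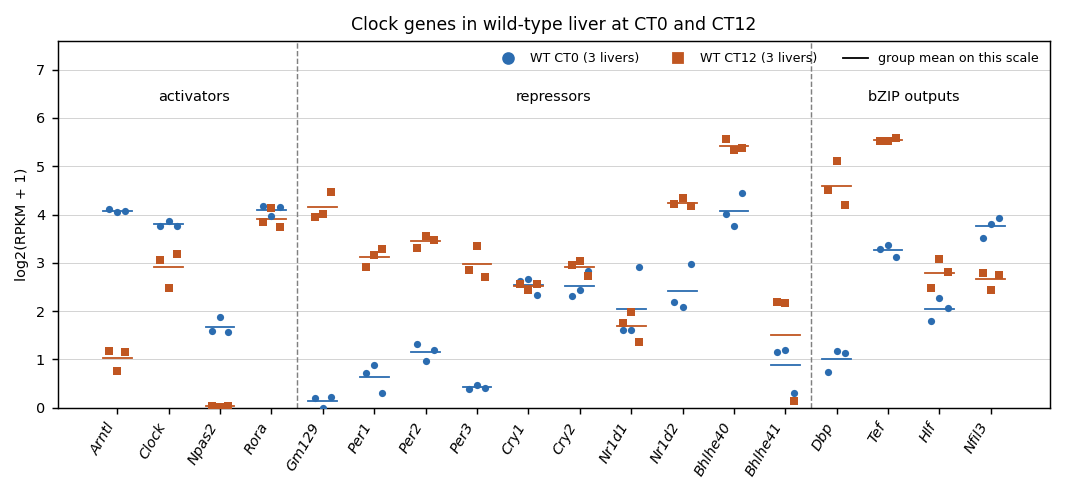
Level of 18 clock genes in each WT liver as log2(RPKM + 1) on the y axis, with CT0 as circles, CT12 as squares and lines at the group means. Arntl, Clock, Npas2 and Nfil3 are lower in every CT12 liver, Gm129, Per1, Per2, Per3, Nr1d2, Bhlhe40, Dbp, Tef and Hlf are higher, and Cry1, Cry2, Rora, Nr1d1 and Bhlhe41 overlap.

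The start regions of several of these genes held the short elements named above. Promoter sequences, 250 bases before to 50 after each start, came from RefSeq on GRCm38.p6 and matched 80.2% of the tested genes. They were searched on both strands for the E-box CACGTG, for the D-box TTATGTAA or TTATGCAA and for the RORE core TAGGTCA (a RORE core can share its last bases with an E-box). All sites found in the windows of the clock genes and of the 20 genes with the largest differences are shown, since these genes carry the contrast of dawn and dusk. Each is printed on the strand of its gene with the motif in capitals.
Gm129 (Ciart), E-box at chr3:95882329-95882354, minus strand: catctagagtCACGTGttgccggtaa
Gm129 (Ciart), E-box at chr3:95882271-95882296, minus strand: cagggggaggCACGTGcagaaccgca
Gm129 (Ciart), E-box at chr3:95882257-95882282, minus strand: tgcagaaccgCACGTGtctgggaggg
Per1, E-box at chr11:69098773-69098798, plus strand: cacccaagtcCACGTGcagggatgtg
Per1, D-box at chr11:69098915-69098942, plus strand: gggcctggcaTTATGCAAcccgcctccc
Per3, D-box at chr4:151044853-151044880, minus strand: gacccgcgcgTTATGTAAggtactcggg
Per3, D-box at chr4:151044806-151044833, minus strand: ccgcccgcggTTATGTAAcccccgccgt
Tef, E-box at chr15:81802536-81802561, plus strand: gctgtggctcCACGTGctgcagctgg
Tef, E-box at chr15:81811266-81811291, plus strand: cctggcccagCACGTGtctacatcgt
Bhlhe41, E-box at chr6:145865558-145865583, minus strand: gtacgttccgCACGTGagctgggtgc
Cry1, E-box at chr10:85185099-85185124, minus strand: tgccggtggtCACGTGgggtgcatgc
Arntl, RORE core at chr7:113207531-113207557, plus strand: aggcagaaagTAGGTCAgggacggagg
Nfil3, RORE core at chr13:52981035-52981061, minus strand: cgctcggaacTGACCTActaacacaca
Aqp8, E-box at chr7:123462209-123462234, plus strand: tcattgatccCACGTGgcccttgccc
Cyp2a5, D-box at chr7:26835258-26835285, plus strand: ggtgaaatagTTGCATAAtcaagaccaa

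Gm129, with the widest rise of the repressors, held 3 E-boxes in this window, and both starts of Tef held 1. Cry1 and Bhlhe41, whose levels did not pass, held 1 each, as did Aqp8, which fell. The RORE core stood in the windows of Arntl and Nfil3, both of which fell, with that of Nfil3 read as TGACCTA on the strand of the gene. The D-box of Cyp2a5 is likewise read from the other strand. Over all 32851 promoters, counted singly, the E-box was found in 7.15%, the D-box in 1.66% and the RORE core in 2.61%. The shares that follow count genes with the motif in any of their promoters and are not comparable with these. Among all genes that rose and had a promoter, 5.36% (17 of 317) held the D-box. It was 1.19% (8 of 672) for those that fell and 1.56% of all 8459 tested genes with a promoter. The RORE core was in 4.46% (30 of 672) of the falls, 1.58% (5 of 317) of the rises and 2.61% of tested genes. The E-box was in 16.4% of the rises, 12.5% of the falls and 12.0% of tested genes. Among genes with a log2 difference of 1 or more, the D-box was in 15.8% (9 of 57) of the rises and 0 of 106 falls, the RORE core in 1.75% and 7.55%, and the E-box in 21.1% and 13.2%. These shares are descriptions of letters in short windows, and a window without a motif says nothing of the factor.

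Outside the core loop, the 10 largest rises were Gm129, Alas1, Dbp, Usp2, Rgs16, Lpin1, Mfsd2a, Tsku, Upp2 and Cyp2a5. Usp2, a deubiquitinase with known clock protein targets, went from 0.463, 0.566 and 0.239 to 13.3, 16.4 and 13.7 RPKM, a rise of 3.44 (SE 0.21, adjusted p = 2.1e-06). Mfsd2a, a transporter of lysophospholipids, was at 2.93, 2.57 and 2.81 RPKM at dawn and spread over 25.1, 18 and 54 at dusk, a rise of 3.0 (SE 0.48, adjusted p = 0.0021). Tsku, a secreted liver protein, stood at 11.8, 7.48 and 4.06 against 56.8, 53.9 and 62.8 RPKM and rose by 2.84 (SE 0.49, adjusted p = 0.0031). Upp2, a uridine phosphorylase, rose by 2.75 (SE 0.19, adjusted p = 4.1e-06), from 38.8, 51.9 and 63 to 372, 337 and 325 RPKM. Every dusk liver was above every dawn liver in these 4 genes, which the rule for picking the largest differences required. Rgs16, a brake on G protein signalling, had an uneven dawn group, with 0.136, 0.607 and 11 RPKM, below 34.5, 17.4 and 22.7 at dusk. Its rise of 3.15 (SE 0.71, adjusted p = 0.015) did not pass without CT0 replicate 1 (adjusted p = 0.054), CT0 replicate 2 (0.061) or CT12 replicate 1 (0.058).

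The 10 largest falls were Elovl3, Tubb2a, Insig2, Arntl, Aqp8, S100a8, S100a9, Chka, Spon2 and Ndrg1. Elovl3 (chr19:46206387-46210184), an elongase of very long fatty acids, was 13.3-fold lower at CT12 in the means, with 84.5, 118 and 84.6 RPKM at dawn and 7.18, 7.31 and 7.13 at dusk. It fell by 3.54 (SE 0.16, adjusted p = 1.9e-07), and its dusk livers were nearly identical to each other. Aqp8, a water channel of the bile canaliculus, fell by 2.63 (SE 0.31, adjusted p = 0.00027), from 81.5, 97.5 and 164 to 15.5, 15.9 and 19.2 RPKM. Chka, the choline kinase that opens phosphatidylcholine synthesis, went from 38.2, 50.6 and 41.1 to 6.03, 6.33 and 6.82 RPKM and fell by 2.58 (SE 0.14, adjusted p = 8.7e-07). Spon2, a secreted matrix protein, was at 6.01, 8.63 and 7.06 RPKM at dawn and 0.527, 0.7 and 0.6 at dusk and fell by 2.35 (SE 0.21, adjusted p = 3.4e-05). Ndrg1, a stress-responsive gene, fell by 2.34 (SE 0.23, adjusted p = 6.1e-05), from 16.4, 30.1 and 28.1 to 3.48, 3.44 and 5.03 RPKM. By the same rule, no dusk value of these genes reached the lowest dawn value. Tubb2a, Insig2 and the S100 genes are described with their groups.

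**Figure D2:**
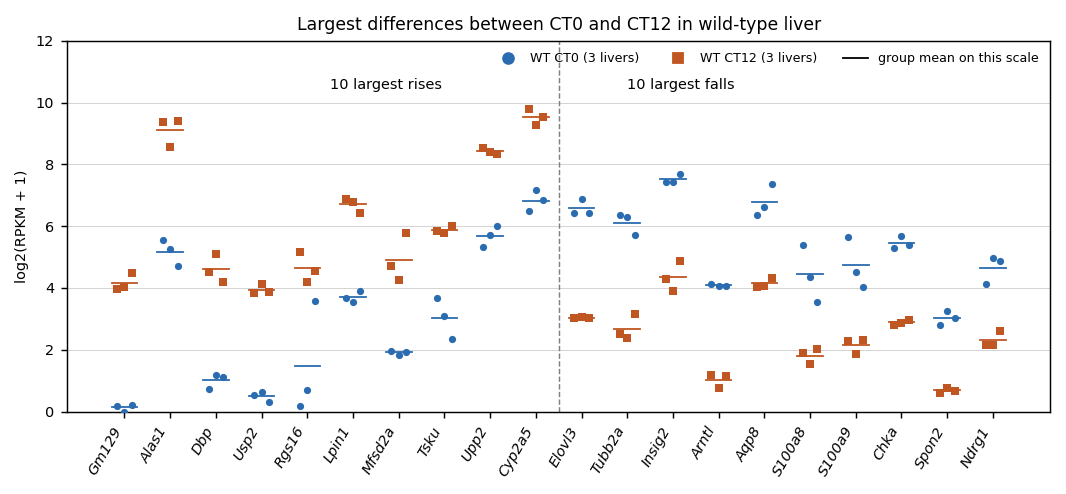
Level of the 10 genes with the largest rises and the 10 with the largest falls in each WT liver, as log2(RPKM + 1) on the y axis, with CT0 as circles, CT12 as squares and lines at the group means. Only genes with groups apart could be picked, and Rgs16 shows the widest spread at CT0 (0.136 to 11 RPKM).

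Several genes that support the cytochrome P450 system were higher at dusk. Of 10 such genes tested, 4 rose and 1 fell, with a median of 0.30, and 2 or 3 rose without single WT libraries. Alas1 (chr9:106135786-106150457), the rate-limiting enzyme of heme synthesis, stood at 45.9, 37.2 and 25 RPKM at dawn and 659, 379.6 and 679 at dusk, 15.9-fold in the means and a rise of 3.95 (SE 0.38, adjusted p = 5.7e-05). Por, the reductase that hands electrons to microsomal P450 enzymes, rose by 1.83 (SE 0.21, adjusted p = 0.00018), from 40.1, 73.8 and 52.9 to 207, 171 and 206 RPKM. The xenobiotic receptor genes moved less. Nr1i3 (CAR) rose by 0.72 (SE 0.20, adjusted p = 0.04) and Nr1i2 (PXR) by 0.62 (SE 0.14, adjusted p = 0.016). The rise of Nr1i3 passed with all libraries only, and its adjusted p reached 0.14 without CT0 replicate 1 or CT12 replicate 3. Hmox1, which degrades heme, fell by 0.71 (SE 0.14, adjusted p = 0.0058), from 11.6, 10.3 and 10.5 to 7.47, 6.25 and 5.1 RPKM, although 0 genes of the list fell with GC and length trends removed.

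Most drug-metabolising P450 genes themselves did not pass. Of 26 tested, 3 rose and 1 fell, against 3.82% and 8.1% of all tested genes, with a median of 0.06. Cyp2a5, the coumarin hydroxylase, was at 88.6, 142 and 114 RPKM at dawn and at 879, 622 and 745 at dusk, a rise of 2.71 (SE 0.20, adjusted p = 7e-06), and its D-box is printed above. Its near-identical neighbour Cyp2a4 rose by 2.53 (SE 0.22, adjusted p = 2e-05), from 6.81, 10.1 and 7.1 to 56.9, 38.5 and 57.5 RPKM, and reads of this pair may be shared. Cyp2e1 rose by 0.72 (SE 0.20, adjusted p = 0.037), and without CT0 replicate 1 its adjusted p was 0.13. Cyp2c70 fell by 0.59 (SE 0.17, adjusted p = 0.048) although CT12 replicate 1 overlapped the dawn group. Cyp3a11, at 1857 ± 334 against 2351 ± 706 RPKM (SD, n = 3), and Cyp1a2, at 169.7 ± 12.8 against 209 ± 12.7, did not pass. Among 35 conjugating enzymes tested, 5 rose and 2 fell, with a median of 0.14, and 2 to 6 rose without single WT libraries. The rises were Ugt2b5 (0.64, adjusted p = 0.0057), Ugt2b34 (0.51, 0.008), Ugt2b36, Ugt2a3 and Sult1d1, and the falls Gstm6 and Nat2. These families have near-identical copies, and their single values are uncertain. The 2 falls passed in neither the median-of-ratios scaling nor the fit without GC and length trends, where 6 and 5 of the list rose.

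Of 19 genes of fatty acid and triglyceride synthesis, 4 rose and 1 fell, with a median of 0.01, and 2 rose in each fit without a WT library. Lpin1 (chr12:16542475-16596576), the phosphatidate phosphatase and coactivator, stood at 11.8, 10.6 and 13.8 RPKM at dawn and 117, 109 and 85.7 at dusk, 8.62-fold in the means and a rise of 3.0 (SE 0.47, adjusted p = 0.0017). Its relative Lpin2 rose by 1.23 (SE 0.21, adjusted p = 0.0031), from 35.6, 43.7 and 34.5 to 80.6, 99.6 and 89.9 RPKM. Dgat2, which makes triglycerides, rose by 0.59 (SE 0.16, adjusted p = 0.03), and Agpat2, an acyltransferase upstream of it, fell by 0.56 (SE 0.11, adjusted p = 0.0062). Thrsp, a lipogenic protein responsive to thyroid hormone and carbohydrate, went from 86.1, 59.5 and 72.5 to 348, 505 and 248 RPKM. Its difference of 2.27 (SE 0.68, adjusted p = 0.05) lay at the threshold and passed in no fit that left out a WT library, with adjusted p of 0.08 to 0.13. The chain-building enzymes Fasn (96, 81.8 and 125 RPKM at dawn, 59.4, 185 and 56.4 at dusk) and Acaca did not pass. Both stood highest in CT12 replicate 2. KO CT0 replicate 1, which enters the shared estimate of spread, summed to 8925 RPKM over this list. The other KO CT0 samples summed to 2011 and 2778 RPKM.

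Elongation and desaturation genes gave 1 rise and 2 falls among 9 tested. Beside Elovl3, Elovl5 fell by 1.17 (SE 0.30, adjusted p = 0.029), from 208, 256 and 281 to 103, 102 and 122 RPKM. It failed under 6 of 19 alternatives, with adjusted p up to 0.093 (without CT0 replicate 3). Fads2, the delta-6 desaturase, rose by 0.78 (SE 0.14, adjusted p = 0.0044), from 161, 159.7 and 182 to 270.3, 264 and 334 RPKM. Of 28 genes of fatty acid oxidation and ketogenesis, 3 rose and 2 fell, against 3.82% and 8.1% of all tested genes, with a median of 0.21. The nuclear receptor gene Ppara rose by 0.71 (SE 0.12, adjusted p = 0.0028), from 36.9, 37.5 and 37.1 to 56.6, 62.7 and 65 RPKM, and Cpt1a, the gate of mitochondrial fat entry, by 0.85 (SE 0.15, adjusted p = 0.0035). Angptl4, a secreted lipase inhibitor, rose by 1.57 (SE 0.41, adjusted p = 0.028), with adjusted p of 0.093 without CT0 replicate 1, 0.09 without CT12 replicate 1 and 0.097 without CT12 replicate 3. Pdk4, which holds pyruvate out of the citric acid cycle, fell by 1.69 (SE 0.24, adjusted p = 0.00094), from 3.11, 8.38 and 5.18 to 0.961, 0.841 and 0.984 RPKM. Plin2, a lipid droplet coat protein, fell by 1.13 (SE 0.19, adjusted p = 0.0025), from 258, 261 and 256 to 110.2, 100.1 and 147 RPKM. Among 25 lipoprotein genes, 2 rose and 0 fell, namely endothelial lipase Lipg (1.42 (SE 0.25, adjusted p = 0.0037)) and the sterol exporter Abcg5 (0.62 (SE 0.11, adjusted p = 0.0052)).

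Of 26 genes of cholesterol synthesis and uptake, 0 rose and 3 fell, against 8.1% of all tested genes that fell, with a median of -0.30. It was 2 falls with median-of-ratios scaling, 1 with GC and length trends removed and 1 to 5 without single WT libraries. Insig2 (chr1:123200930-123229166), which holds the SREBP precursor in the endoplasmic reticulum, stood at 173, 171 and 205 RPKM at dawn and 18.5, 14 and 28.1 at dusk and fell by 3.16 (SE 0.24, adjusted p = 8.9e-06). The row kept for it is a transcript of 204 bases, and over all alternatives the difference lay between -3.42 and -2.55. The synthase gene Hmgcs1 fell by 1.11 (SE 0.27, adjusted p = 0.02), from 69.7, 109 and 124 to 32.5, 57.1 and 48.8 RPKM. It did not pass without CT0 replicate 2 (adjusted p = 0.072), CT0 replicate 3 (0.079) or CT12 replicate 1 (0.076). Sc5d, a late enzyme of the pathway, fell by 0.56 (SE 0.15, adjusted p = 0.037) but did not pass with median-of-ratios scaling (0.067), without CT0 replicate 3 (0.13) or without CT12 replicate 1 (0.12). Sqle overlapped between the times, at -0.01.

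Among 18 genes of bile acid synthesis and transport, 4 rose and 2 fell, with a median of 0.04. Cyp7a1 (chr4:6192759-6202780), the rate-limiting enzyme of bile acid synthesis, rose from 15.9, 17.2 and 17.3 to 78.6, 44.5 and 74.8 RPKM, 3.92-fold in the means and by 1.87 (SE 0.27, adjusted p = 0.0011). The next enzyme of the neutral pathway, Hsd3b7, fell by 1.61 (SE 0.13, adjusted p = 1.2e-05), from 316, 363 and 379 to 103, 108 and 135 RPKM. The bile salt export pump Abcb11 fell by 1.17 (SE 0.11, adjusted p = 5.7e-05), from 184, 212 and 219 to 93.9, 88.9 and 88.4 RPKM. The dawn and dusk groups of these 3 genes did not overlap. Smaller rises were those of the bile acid receptor Nr1h4 (0.38 (SE 0.11, adjusted p = 0.04)), the uptake carrier Slco1b2 (0.36 (SE 0.10, adjusted p = 0.041)) and the canalicular exporter Abcc2 (0.35 (SE 0.09, adjusted p = 0.031)). Leaving out single WT libraries left 1 or 2 rises in this list. Cyp8b1, the sterol 12-hydroxylase, had 56.2, 100 and 104 RPKM at dawn and 52.3, 32.1 and 48.5 at dusk, a difference of -0.93 (SE 0.30, adjusted p = 0.063).

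Several genes of glucose release and storage were higher at dusk. Of 8 genes of glucose output, 3 rose and 0 fell, with a median of 0.22, and 1 to 3 rose without single WT libraries. Pck1, the gatekeeper of gluconeogenesis, rose from 362, 475 and 435 to 859.5, 1090 and 1270 RPKM, by 1.33 (SE 0.23, adjusted p = 0.0031). The glucose 6-phosphate transporter Slc37a4 rose by 1.18 (SE 0.28, adjusted p = 0.02), from 49, 31.7 and 44.8 to 115, 92.7 and 78.8 RPKM, and the transcription factor gene Foxo1 by 0.58 (SE 0.14, adjusted p = 0.021). Neither passed in every fit without a library. For Slc37a4 the adjusted p was 0.078 without CT0 replicate 2 and 0.075 without CT12 replicate 1, and for Foxo1 it was 0.057 to 0.085 without CT0 replicate 1 or 2 or CT12 replicate 2 or 3. G6pc, the phosphatase that completes the path, overlapped, at 83.2, 119.5 and 154 against 160.5, 72.1 and 139.6 RPKM.

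Of 9 glycogen genes, 4 rose and 1 fell, with a median of 0.36, and 2 or 3 rose without single WT libraries. Gys2 (chr6:142371133-142421629), the liver glycogen synthase, rose from 45, 44.1 and 52.4 to 157, 137 and 140.0 RPKM, by 1.60 (SE 0.13, adjusted p = 1.1e-05). Ugp2, which makes UDP-glucose, rose by 0.60 (SE 0.16, adjusted p = 0.031). The glycogen-targeting subunits of protein phosphatase 1 moved apart. Ppp1r3b rose by 0.78 (SE 0.23, adjusted p = 0.043), from 42.3, 42.4 and 49.1 to 77.8, 70.0 and 83.9 RPKM, and passed in no fit that left out a WT library (adjusted p of 0.065 to 0.13). Ppp1r3c fell by 1.69 (SE 0.26, adjusted p = 0.0014), from 30.1, 41.1 and 44.6 to 9.62, 8.14 and 17.3 RPKM. Among 18 genes of glycolysis and sugar entry, 1 rose, with a median of 0.13. It was Pfkfb3, which makes the activator of phosphofructokinase, at 0.785, 1.59 and 2.31 against 10.7, 12 and 8.3 RPKM and a rise of 2.18 (SE 0.29, adjusted p = 0.00057).

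**Figure D3:**
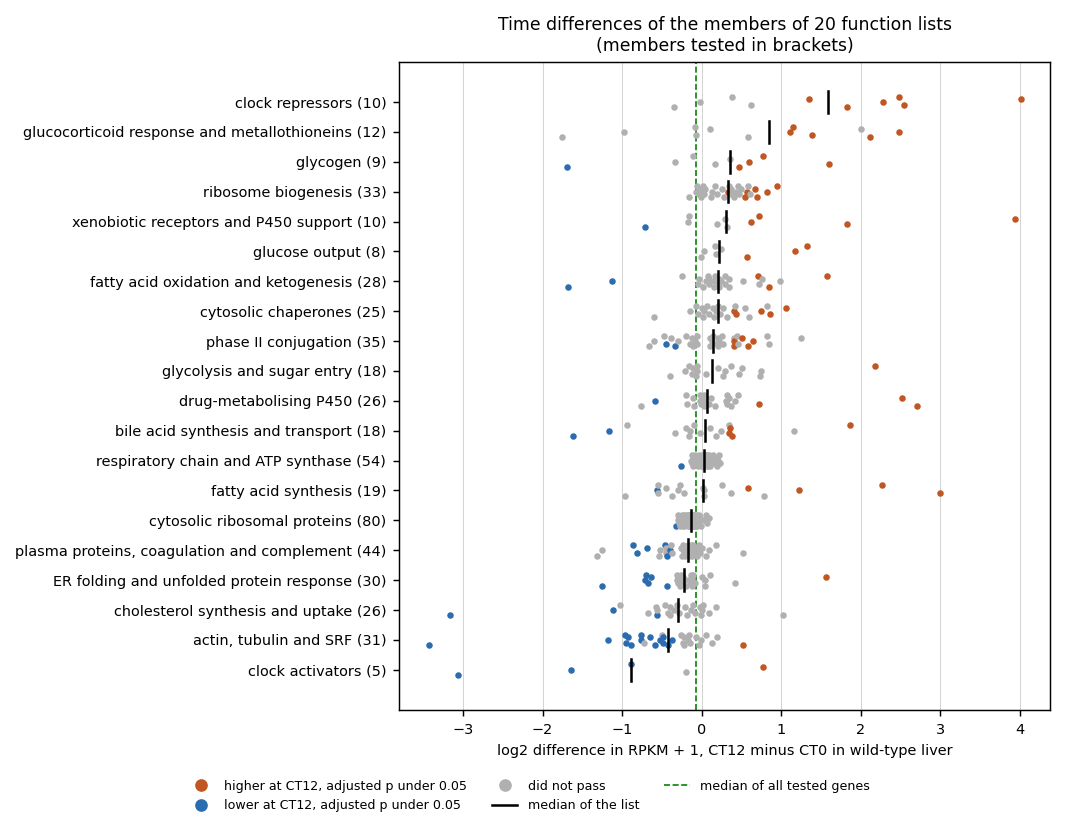
Log2 difference in RPKM + 1 between CT12 and CT0 of each tested member of 20 function lists, ordered by list median (black bars), with the median of all 10542 tested genes, -0.07, as a dashed line. Medians run from 1.59 for the clock repressors to -0.89 for the clock activators, and coloured points mark members that passed the test.

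The NAD salvage pathway gave 2 rises and 0 falls among 14 genes tested together with the sirtuins, with a median of -0.05. Nampt, its rate-limiting enzyme, stood at 10.9, 11.3 and 11.2 RPKM at dawn and 48.2, 35.7 and 41.9 at dusk, a rise of 1.81 (SE 0.11, adjusted p = 1.3e-06). Nmrk1, the nicotinamide riboside kinase, rose by 1.66 (SE 0.14, adjusted p = 1.7e-05), from 6.67, 7.21 and 7.2 to 25.4, 24.2 and 23.4 RPKM. In both genes the replicates of a time lay close together and far from the other time. Sirt1, the NAD-dependent deacetylase, stood at 2.87, 3.32 and 2.98 against 2.83, 3.21 and 3.35 RPKM, a difference of 0.03 (SE 0.11, adjusted p = 0.9).

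Of 33 genes of the urea cycle and amino acid breakdown, 3 rose and 3 fell, with a median of 0.02, and 6 rose and 3 fell with median-of-ratios scaling. Without single WT libraries 0 to 3 rose and 2 to 4 fell. The dehydratase Sds (0.75 (SE 0.17, adjusted p = 0.013)) and the transaminase Gpt2 (0.75 (SE 0.21, adjusted p = 0.042)) were among the rises. Cbs, cystathionine beta-synthase, fell from 236, 194 and 195 to 88.3, 92 and 91 RPKM, by 1.19 (SE 0.09, adjusted p = 6.6e-06). Agxt fell by 0.79 (SE 0.14, adjusted p = 0.0038) and Hal by 0.82 (SE 0.19, adjusted p = 0.015), the latter with an adjusted p of 0.058 without CT0 replicate 3. In the list of one-carbon and nucleotide synthesis, 4 of 23 rose and 2 fell. Bhmt, which remethylates homocysteine with betaine, went from 1437, 1252 and 1566 to 664, 361 and 432 RPKM and fell by 1.59 (SE 0.24, adjusted p = 0.0016). Among the rises were Ppat at 0.84 (SE 0.14, adjusted p = 0.0028) and Ctps at 0.74 (SE 0.21, adjusted p = 0.042), of nucleotide synthesis, and the folate enzyme gene Mthfd1l at 0.78 (SE 0.15, adjusted p = 0.007).

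Some genes for building ribosomes were higher at dusk, while of those of the ribosome itself 1 passed. Of 33 ribosome biogenesis genes, 7 rose and 0 fell, with a median of 0.33. With median-of-ratios scaling 11 rose, and with a WT library left out 2 to 8 rose. Rrn3, an initiation factor of RNA polymerase I, rose by 0.67 (SE 0.13, adjusted p = 0.0075), from 5.78, 6.39 and 6.29 to 12.1, 9.43 and 9.82 RPKM, and the polymerase subunit gene Polr1a by 0.57 (SE 0.12, adjusted p = 0.0094). Nucleolar proteins followed, with Gnl3 up by 0.94 (SE 0.22, adjusted p = 0.017), Nolc1 by 0.82 (SE 0.21, adjusted p = 0.028), Nop2 by 0.70 (SE 0.18, adjusted p = 0.026), Rrs1 by 0.55 and Ncl by 0.33. Without CT12 replicate 1, which had the highest dusk value of Gnl3, Nolc1 and Nop2, their adjusted p-values were 0.062, 0.1 and 0.095. These genes also failed without CT0 replicate 3 or CT12 replicate 3. Gnl3 failed without CT0 replicate 1 as well, and Nolc1 and Nop2 without CT0 replicate 2. Of 80 cytosolic ribosomal protein genes, 0 rose and 1, Rplp1, fell by 0.33 (SE 0.09, adjusted p = 0.042), and 0 passed with median-of-ratios scaling. The median of the list was -0.13. Among 29 translation factors 2 rose and 0 fell, of which Eif4ebp3, an inhibitor of cap-dependent initiation, went from 12.2, 18.6 and 12.7 to 78.3, 33.5 and 38.1 RPKM, a rise of 1.64 (SE 0.32, adjusted p = 0.007).

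The chaperone genes that passed were higher at dusk in the cytosol and mostly lower in the endoplasmic reticulum (ER). Of 25 cytosolic chaperone genes, 5 rose and 0 fell, with a median of 0.21, and 8 rose with median-of-ratios scaling. The constitutive HSP70 gene Hspa8 rose by 1.06 (SE 0.27, adjusted p = 0.025), from 448, 256 and 264 to 703, 601 and 657 RPKM, the inducible Hspa1b by 0.87 (SE 0.20, adjusted p = 0.016), the co-chaperone Dnaja1 by 0.75 (SE 0.21, adjusted p = 0.036), Dnajb4 by 0.43 and the chaperonin subunit gene Tcp1 by 0.41. CT0 replicate 1 held the highest dawn value of Hspa8, Hspa1b and Dnaja1. The calls of these 3 genes were lost without CT0 replicate 2 (adjusted p of 0.09, 0.06 and 0.094), CT0 replicate 3 (0.089, 0.057 and 0.12) or CT12 replicate 1 (0.076, 0.061 and 0.1), and with a WT library left out 1 to 6 of the list rose. The cold-inducible Cirbp (8.88, 19.1 and 21.5 against 8.94, 10.5 and 9.34 RPKM) and Rbm3 (26.7, 27.9 and 28.8 against 39.8, 39.4 and 37.6) did not pass, at -0.64 (SE 0.28, adjusted p = 0.17) and 0.47 (SE 0.18, adjusted p = 0.11).

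Of 30 genes of ER folding and the unfolded protein response, 1 rose and 6 fell, against 3.82% and 8.1% of all tested genes. The median was -0.22, and 3 to 6 fell without single WT libraries. The lectin chaperone gene Calr fell by 0.71 (SE 0.10, adjusted p = 0.00092), from 412, 326 and 325 to 212, 212 and 219 RPKM. The disulfide isomerase genes Pdia4 and Pdia6 fell by 0.68 and 0.64 (adjusted p = 0.007 and 0.0063), and Ppib, Derl3 and Sdf2l1 fell by 0.43, 0.70 and 1.25. Sdf2l1 did not pass without CT0 replicate 1 (adjusted p = 0.062), CT12 replicate 1 (0.058) or CT12 replicate 3 (0.078). The single rise was Herpud1, a component of ER-associated degradation, from 110.0, 67.9 and 83.4 to 269, 222 and 277 RPKM and by 1.56 (SE 0.20, adjusted p = 0.0004). Hspa5 (BiP), the main ER chaperone, stood at 605 RPKM in CT0 replicate 1 against 230.4 and 208 in the other dawn livers and 265, 282 and 236 at dusk, and did not pass. Hsp90b1 and Calr were also highest in CT0 replicate 1.

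Of all lists, that of cytoskeletal genes held the most falls. Of 31 genes of actin, tubulin, actin-linked proteins and the serum response factor, 15 fell and 1 rose, with a median of -0.42. Of all tested genes 8.1% fell and 3.82% rose. With median-of-ratios scaling 14 fell and 2 rose, and with a WT library left out 8 to 12 fell. Tubb2a (chr13:34166170-34169877), a beta-tubulin, was 12.5-fold lower at dusk in the means, at 80.4, 77.7 and 50.9 RPKM against 4.66, 4.26 and 7.86 and fell by 3.43 (SE 0.29, adjusted p = 1.6e-05). Tubb5 fell by 1.18 (SE 0.20, adjusted p = 0.0032), from 33.1, 27.6 and 19 to 8.54, 12.2 and 12.4 RPKM. Tuba1a, Tubb4b and Tuba4a fell by 0.97, 0.96 and 0.93, with adjusted p = 0.0054, 0.0063 and 0.00021. Tubulin genes are near-identical in parts, and reads may be shared among them. Actb, the beta-actin gene often used as a reference, fell from 834, 805 and 926 to 482, 449 and 458 RPKM, by 0.88 (SE 0.10, adjusted p = 0.00017). Gapdh, another such reference, overlapped between the times (675, 568 and 615 against 599, 527 and 544 RPKM) with a difference of -0.15 (SE 0.20, adjusted p = 0.67).

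The summed markers of 4 other cell types were lower at dusk beside these genes. The 12 Kupffer cell and macrophage markers summed to 372, 323 and 300.1 RPKM at dawn and 269, 209 and 181 at dusk. All 12 had negative differences, with a median of -0.59, and 2 passed (C1qb and Emr1). The 10 endothelial markers summed to 159.8, 164 and 138 RPKM at dawn and 113, 96.9 and 108 at dusk, with a median of -0.54 and 3 falls (Oit3, Cdh5 and Tek). The 10 stellate cell and fibroblast markers summed to 148, 207 and 194 RPKM against 127, 124 and 112, with a median of -0.52 and 2 falls (Pdgfrb and Dcn). Neutrophil markers were the furthest apart, at 106, 47.1 and 31.5 RPKM against 7.9, 6.32 and 9.05, and S100a8 and S100a9, calgranulins carried by these cells, were the genes that passed. S100a8 stood at 41.2, 19.6 and 10.7 RPKM at dawn and 2.69, 1.91 and 3.04 at dusk and fell by 2.62 (SE 0.43, adjusted p = 0.0025). S100a9 stood at 49.3, 21.7 and 15.4 and 3.88, 2.66 and 3.93 RPKM and fell by 2.58 (SE 0.39, adjusted p = 0.0015). The hepatocyte markers summed to 59260, 57920 and 52510 RPKM against 53360, 44240 and 48610, which overlap. In whole tissue, fewer cells of a type and less RNA per cell cannot be told apart. The part of these cells in the lower cytoskeletal levels was not tested.

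**Figure D4:**
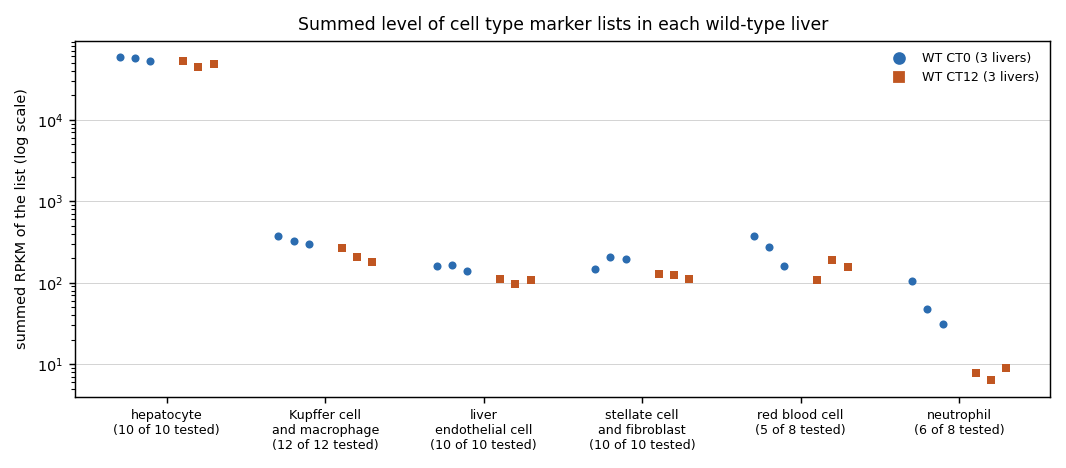
Summed RPKM of 6 cell type marker lists in each WT liver on a log axis, with CT0 as circles and CT12 as squares. The Kupffer cell, endothelial, stellate and neutrophil sums are lower in every CT12 liver than in any CT0 liver, while the hepatocyte and red blood cell sums overlap.

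Of 44 genes of plasma proteins, coagulation and complement, 0 rose and 6 fell, against 8.1% of all tested genes that fell, with a median of -0.17. With median-of-ratios scaling 1 rose and 3 fell, and 3 fell with GC and length trends removed. Without single WT libraries 2 to 4 fell. All 3 fibrinogen chains were among the falls. Fgg fell from 3825, 3013 and 3170 to 1945, 1799 and 1723 RPKM, by 0.87 (SE 0.16, adjusted p = 0.0058), Fga by 0.81 (SE 0.17, adjusted p = 0.011) and Fgb by 0.69 (SE 0.19, adjusted p = 0.033). Fgb failed under 9 of 19 alternatives, among them every fit without a WT library except that without CT12 replicate 1. Its adjusted p was 0.065 with median-of-ratios scaling and 0.12 without CT0 replicate 1 or CT12 replicate 3. C4b, Mbl1 and Itih1 fell by 0.46, 0.44 and 0.39. Albumin, Alb, overlapped, at 36060 ± 2873 against 30910 ± 3915 RPKM (SD, n = 3).

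Hormone-linked genes moved in several directions. Of 12 genes of the glucocorticoid response and metallothioneins, 5 rose and 0 fell, with a median of 0.85. Fkbp5, a chaperone that dampens the glucocorticoid receptor, rose from 4.09, 9.95 and 6.78 to 32.2, 30.4 and 32.9 RPKM, by 2.12 (SE 0.29, adjusted p = 0.00071). Tsc22d3 (GILZ) rose by 1.39 (SE 0.23, adjusted p = 0.0025), from 25.9, 24.1 and 31.9 to 73.7, 59.3 and 87.6 RPKM, Errfi1 by 1.15 (SE 0.25, adjusted p = 0.012) and Zbtb16 by 1.12 (SE 0.23, adjusted p = 0.0094), beside Per1. The metallothionein genes Mt1 (94.1, 103 and 72.5 against 140.1, 158 and 107 RPKM) and Mt2 (11.2, 15.6 and 47.5 against 88.2, 86 and 80.1) did not overlap and did not pass, at adjusted p = 0.66 and 0.31.

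Of 20 genes of growth hormone, STAT5 and IGF signalling, 1 rose and 4 fell, with a median of 0.18, and 2 to 4 fell without single WT libraries. The transcription factor genes Stat5b and Stat5a, mediators of growth hormone, fell by 0.99 (SE 0.11, adjusted p = 0.00022) and 0.84 (SE 0.16, adjusted p = 0.0059), from 13, 16.6 and 17.6 to 6.61, 8.19 and 7.32 RPKM for the former. The binding protein gene Igfbp1 fell by 1.68 (SE 0.43, adjusted p = 0.026), from 41, 90.3 and 78.3 to 26.1, 21.5 and 14.1 RPKM. It failed under 6 of 19 alternatives, with adjusted p up to 0.097 (without CT12 replicate 3). Igfbp3 fell by 0.66 (SE 0.18, adjusted p = 0.037) and Igfbp4 rose by 0.46 (SE 0.08, adjusted p = 0.0033), while Igf1 itself stood at 334, 311 and 259.8 against 343, 308 and 370.4 RPKM and did not pass. Among 26 genes of insulin and energy sensing, 3 rose and 2 fell. The insulin receptor substrates Irs2 and Irs1 fell by 1.04 (SE 0.21, adjusted p = 0.0073) and 0.50 (SE 0.13, adjusted p = 0.032), and the rises were the PI3-kinase subunit Pik3r1 (0.72 (SE 0.13, adjusted p = 0.0036)), the AMPK subunit Prkaa2 (0.58 (SE 0.12, adjusted p = 0.012)) and Trib1 (0.55 (SE 0.14, adjusted p = 0.03)).

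Of 24 cell cycle and growth arrest genes tested, 2 rose and 2 fell, against 3.82% and 8.1% of all tested genes. Wee1, the kinase that holds cells before mitosis and a known clock output, rose from 0.982, 0.894 and 1.01 to 6.42, 7.19 and 7.22 RPKM, by 2.02 (SE 0.19, adjusted p = 4.2e-05). Ccne1 rose by 1.23 (SE 0.24, adjusted p = 0.0065), from 0.696, 0.173 and 0.292 to 1.73, 3.7 and 1.59 RPKM. Its values rest on few reads, 8, 2 and 3 at dawn and 17, 33 and 13 at dusk. Over the alternatives its difference ran from 0.96 to 2.37. Ccng2 fell by 1.02 (SE 0.16, adjusted p = 0.0018) and Bbc3 (PUMA) fell by 0.84 (SE 0.12, adjusted p = 0.0012). Among 11 immediate early genes 0 rose and 2 fell, and Egr1, at 1.86, 2.93 and 1.56 RPKM at dawn and 0.286, 0.224 and 0.614 at dusk, fell by 1.17 (SE 0.28, adjusted p = 0.021). It did not pass without CT0 replicate 2 (adjusted p = 0.083), CT12 replicate 1 (0.066) or CT12 replicate 2 (0.06). Of 20 RNA decay genes 1 rose and 2 fell. The rise was Ccrn4l (nocturnin), from 0.477, 0.457 and 0.554 to 5.64, 7.01 and 8.12 RPKM and by 2.39 (SE 0.24, adjusted p = 6.1e-05), and the falls were the ARE-binding Zfp36l1 (-0.89 (SE 0.12, adjusted p = 0.0006)) and Cnot8 (-0.47 (SE 0.11, adjusted p = 0.015)).

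Several organelle and housekeeping lists were counted beside the 11.9% of all tested genes that differed. Of 54 respiratory chain and ATP synthase genes 0 rose and 1 fell, of 39 splicing factors 0 and 1, of 39 secretory transport genes 0 and 1, and of 35 proteasome genes 1 and 3, with medians of 0.03, -0.05, -0.08 and -0.10. The 14 genes of the microRNA machinery gave 0 calls in limma. At an unadjusted p under 0.05 they gave 3, and all 10542 tested genes gave 2879. Of 10 genes that the study tied to miR-378, a list chosen in that study, 1 rose (Por) and 1 fell (Pdk4). Of 16 genes of mitochondrial protein quality control 1 rose and 1 fell. Clpx, the ATPase of the matrix ClpXP protease, fell from 153, 176 and 188 to 33.3, 31 and 38.2 RPKM, by 2.30 (SE 0.15, adjusted p = 2.9e-06), while Afg3l2 rose by 0.38 (SE 0.08, adjusted p = 0.01). Among 24 autophagy genes 2 rose and 1 fell. Bnip3, a mitophagy receptor, rose from 48.8, 61.4 and 62 to 147, 106 and 146 RPKM, by 1.19 (SE 0.15, adjusted p = 0.0004), and the receptor Sqstm1 (p62) fell by 0.64 (SE 0.14, adjusted p = 0.013). Among 8 Krüppel-like factor genes Klf13 (1.16 (SE 0.15, adjusted p = 0.0004)) and Klf15 (0.71 (SE 0.13, adjusted p = 0.0059)) rose and Klf6 (-0.68 (SE 0.14, adjusted p = 0.0075)) fell.

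The same contrast in the KO livers served as the background without liver Bmal1. There 258 of the same 10542 genes differed between the times, and the difference between the genotypes passed for 165 genes, 1.57% of those tested (limma interaction, adjusted p under 0.05), of which 152 also passed in WT. Among the 130 genes named by the fixed rule, 34 passed this test. The WT difference is part of the interaction contrast, and most named genes were picked by it. The 34, like the 152, thus partly follow from that choice and cannot be set beside the 1.57%. Arntl, the targeted gene, stood at 5.92, 5.73 and 7.45 RPKM in KO at CT0 and at 4.37, 3.59 and 4.01 at CT12, values of a whole transcript that do not check the loss of a floxed exon. It differed by -3.06 in WT and -0.56 in KO (interaction adjusted p = 6.8e-05). For Per2, Per3, Dbp, Tef and Gm129 the KO differences were 0.41, 0.36, 1.19, 0.40 and 0.91, all smaller than in WT by this test. Gys2 (1.60 in WT, -0.22 in KO), Nampt (1.81, 0.25), Clpx (-2.30, 0.08) and Cyp2a5 (2.71, 0.15) also differed between genotypes. Elovl3 turned round, with 84, 97.6 and 85.9 RPKM at dawn and 239, 295 and 185 at dusk in KO, a rise of 1.4 (adjusted p = 0.0019) where WT fell by 3.54. For other genes no difference between genotypes was shown. Pck1 (1.33 in WT, 2.03 in KO, interaction adjusted p = 0.4), Herpud1 (1.56, 1.60, 0.98), Tsc22d3 (1.39, 1.10, 0.78) and Alas1 (3.95, 2.39, 0.24) did not pass it.

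**Figure D5:**
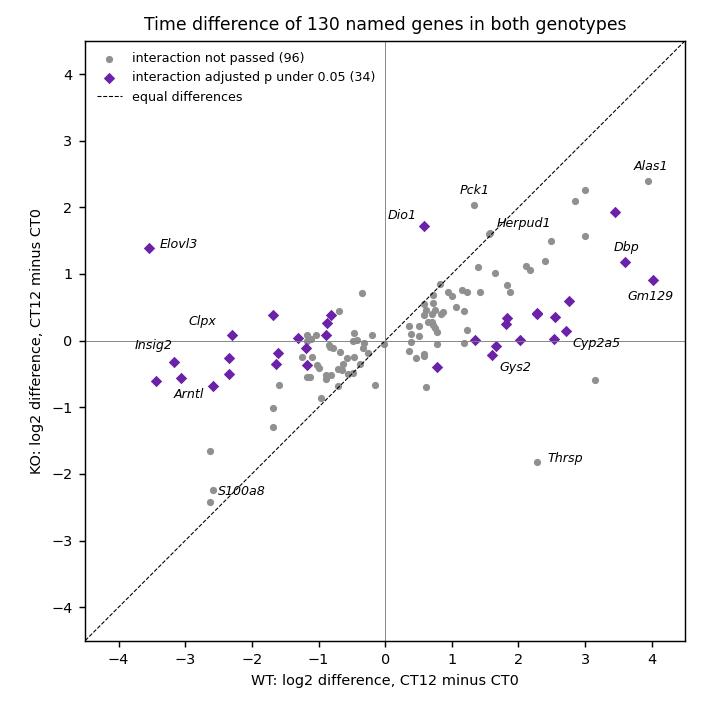
Log2 difference between CT12 and CT0 of the 130 named genes in WT (x axis) and in KO (y axis), with the line of equal differences dashed and the 34 genes that passed the interaction test as diamonds. Elovl3 lies at -3.54 in WT and 1.4 in KO, and Pck1, Herpud1 and S100a8 lie near the dashed line or beyond it.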

How the data were processed

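Liver RNA of 12 samples, 3 per genotype and time, had been made into Illumina TruSeq RNA libraries from Trizol-extracted total RNA. The authors deposited 1 table of RPKM values per sample for 46585 Ensembl transcripts. The submitters' processing notes name TopHat2, bedtools 2.19.1 and the mm9 build. Their roles and settings, the annotation release, and how strand and reads matching several transcripts were counted are not given in the sources used here. RPKM values are not counts, so no count model was used. Reads per sample were recovered from the steps between low values with GENCODE vM1 transcript lengths on NCBIM37 (95.5% of rows matched, step tolerance 0.02 reads). They were used as depth only.

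Groups and replicate numbers came from the sample titles. Where a symbol had several transcripts, the row of highest average in the 12 samples stood for it (22322 symbols), often a short transcript. Genes averaging 1 RPKM or more in at least 1 WT group entered. A fit of 4 group means to log2(RPKM + 1) of all 12 samples was made with limma 3.58.1 in R 4.3.3 (lmFit, eBayes with trend). Adjusted p-values are Benjamini-Hochberg values over the 10542 tested genes with a threshold of 0.05, and ± is the SD of 3 samples. The fit was tested on simulated data. Named genes were the clock genes, the 10 largest rises and 10 largest falls without overlap of the groups, up to 3 called members per function list with the largest differences, and Actb and Gapdh. Some genes are counted in their lists but not reported here. Further list members are named with their values and were chosen after these were seen. The comparison, the lists, the motifs and the rule were chosen with earlier results of these data known. Alternatives covered the pseudocount, the filter, 3 scalings, the choice of transcript row, the samples fitted, a replicate block and leaving out each WT library. Use of the longest transcript row and the removal of GC and length trends, available for 10210 genes, were chosen after seeing the data. Promoters were RefSeq sequences matched by symbol. Python 3.11.15, pandas 2.3.3 and matplotlib 3.10.9 were used.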

Additional observations from a re-analysis of the deposited data

Results flagged for a closer look

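For 34 of the named genes the time difference itself differed between the genotypes by the limma interaction test, and this is what marked them. Of these 32 are given here. Most named genes were picked by their WT difference, which is part of this contrast, so their number is partly set by that choice. Values are the KO time difference minus the WT time difference on the log2 scale, so a positive value for a gene that fell in WT means a smaller fall, or a rise, in KO. Groups held 3 samples, too few for a test of single samples standing apart.

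Among clock genes the differences were 2.50 for Arntl, 1.29 for Npas2, 0.98 for Clock, -3.11 for Gm129, -2.41 for Dbp, -2.19 for Per3, -1.89 for Tef, -1.87 for Per2 and -1.34 for Bhlhe40. The lowest adjusted p of the named genes belonged to Elovl3 (4.93, adjusted p = 6.8e-07), whose WT fall faced a KO rise. Other genes that fell in WT had positive values: Insig2 2.85, Tubb2a 2.83, Clpx 2.38, Spon2 2.08, Ppp1r3c 2.07, Chka 1.90, Ndrg1 1.84, Hsd3b7 1.43, Fga 1.20, Fgg 1.14, Cbs 1.08 and Abcb11 0.81. Other genes that rose in WT had negative values: Cyp2a5 -2.56, Cyp2a4 -2.50, Upp2 -2.16, Wee1 -2.00, Gys2 -1.82, Nmrk1 -1.74, Nampt -1.56, Usp2 -1.52 and Por -1.49. Dio1, the deiodinase that activates thyroid hormone, was the exception, with 1.14 and a larger rise in KO (1.72) than in WT (0.58).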

How the results depend on the processing

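No named gene that passed turned its direction under an alternative, and no gene called under both an alternative and the reported fit had opposite signs. Of 123 named genes past the threshold, 83 passed under every alternative and 40 failed under at least 1. In the order WT difference, WT higher, WT lower, KO difference and interaction, the counts were 210, 77, 133, 55 and 90 with a log2 difference of at least 1 also required, 2879, 907, 1972, 2088 and 1307 at an unadjusted p under 0.05, and 3303, 996, 2307, 722 and 428 with all transcript rows tested (25946 rows). Leaving out each WT library gave 660 to 1028, 207 to 337, 438 to 691, 171 to 241 and 88 to 137. Of the 1257 genes, 646 to 903 were called again in these fits, which have fewer samples. The WT genes higher at CT12 numbered 617 with quantile normalization and 663 with median-of-ratios scaling. With no filter on low values 161 genes differed in KO, with 16707 genes tested. The replicate block gave 1207 genes in WT, of which 1120 were among the 1257, and with GC and length trends removed as well 549 were lower at CT12. WT samples sharing a replicate number hardly deviated together (correlations of 0.036, -0.068 and 0.040 for the WT pairs). Between WT and KO at CT12, the values for replicates 1, 2 and 3 were -0.006, 0.1395 and 0.1346. At CT0 they were 0.0315, 0.0639 and -0.0598. Pairs with different numbers ran from -0.1968 to 0.1114. Values this small, from 3 samples per group, cannot settle whether the numbers pair the samples. The block is given here only.

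Limits are the 3 libraries per group, the unknown handling of reads shared by transcripts and gene copies, and single time points 12 h apart, which cannot tell a change of level from a shift of phase. Genes with few reads, such as Npas2 at CT12 and Gm129 at CT0, have log2 differences that depend on the pseudocount.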

Other observations

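Smaller gene groups outside the main account also held calls. In the iron list 0 of 16 rose and 2 fell. Hfe2 (hemojuvelin, a regulator of hepcidin) went from 21.8, 22.3 and 23.7 to 15, 12.3 and 13 RPKM and fell by 0.71 (SE 0.10, adjusted p = 0.00091). The iron carrier Slc11a2 fell by 0.58 (SE 0.16, adjusted p = 0.033) and failed the threshold under 9 of 19 alternatives (adjusted p from 0.021 to 0.13). Hepcidin itself, Hamp, overlapped between the times, at 1473, 1106 and 802 against 742, 638 and 1185 RPKM. In the polyamine list 2 of 9 rose and 1 fell. Amd1, the decarboxylase that feeds spermidine synthesis, rose from 4.9, 5.26 and 5.46 to 12.4, 10.4 and 11.4 RPKM, by 1.0 (SE 0.11, adjusted p = 0.00017). Of 17 NRF2 targets 0 rose and 1 fell. That gene, Gclc, which codes for the catalytic subunit of the rate-limiting enzyme of glutathione synthesis, went from 106, 119.9 and 119.9 to 65.2, 61.6 and 66.1 RPKM and fell by 0.83 (SE 0.14, adjusted p = 0.0035). Of 7 genes of thyroid hormone handling 2 rose and 1 fell. Dio1 stood at 36.2, 37.7 and 39.1 RPKM at dawn and 44.5, 63.5 and 64.4 at dusk, and its rise of 0.58 (SE 0.16, adjusted p = 0.033) failed under 6 of 19 alternatives (adjusted p from 0.0047 to 0.12).

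Among markers of lobule position, the 8 pericentral genes summed to 2914, 3609 and 3595 RPKM at CT0 and 5086, 4452 and 5265 at CT12. Most of each sum was Cyp2e1, at 1836, 2515 and 2482 RPKM at CT0 and 3812, 3370 and 4026 at CT12. It was the 1 pericentral gene that passed. Its rise of 0.72 (SE 0.20, adjusted p = 0.037) failed under 8 of 19 alternatives, all 6 that left out a library among them. The glutamine synthetase gene Glul, another pericentral marker, overlapped, at 457, 549.5 and 614 against 577, 559.6 and 518 RPKM. The 7 periportal genes summed to 2845, 2674 and 2782 RPKM at CT0 and 3383, 3106 and 3329 at CT12, where Pck1 and Sds had risen and Hal had fallen. In mean RPKM the rise of Pck1 was larger than that of the sum. Red blood cell markers summed to 379.8, 273 and 160.1 RPKM at CT0 and to 108, 189.6 and 157 at CT12. Their members Hbb-b2 and Hba-a2 passed as lower, and neither call held with quantile normalization or median-of-ratios scaling, where 0 of the 5 tested markers passed. The CT0 replicate highest in these markers was also the highest in the neutrophil markers. Lymphocyte markers summed to at most 9.13 RPKM in any WT liver, and 1 of 11 was tested.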
